A study of Mus musculus with 66 samples.

Results

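The comparison concerns oocytes from culture day 20 (D20, 3 libraries) set against oocytes from culture day 17 (D17, 3 libraries), the last interval of a culture course that turns mouse embryonic stem cells into oocytes. Its members were all genes with a mean of at least 1 RPM (reads per 1000000 reads in genes) in either group, which made 12587 of the 24062 genes in the table; the 6 libraries belong to a series of 66. Both groups were grown in the same way. Germ cells resembling primordial germ cells, induced from stem cells and positive for the Blimp1-mVenus reporter, were aggregated (5000 per aggregate) with 75000 frozen-thawed gonadal somatic cells (E12.5) into reconstituted ovaries, and these were kept on Transwell-COL membranes with 10 µM Rock inhibitor (Y-27632) for the first 2 days. The strain label of both groups is C57BL/6 X 129/SvJ, no genetic change is given for either, and their labels give no oxygen level. The series calls its replicates biological, and nothing ties a library to a particular aggregate. For comparison with growth in the ovary, oocytes labelled large from stella-ECFP(SC) reporter ovaries at postnatal day 6 (P6 large, 3 libraries) and day 4 (P4 large, 3 libraries), strain C57BL/6 x B6D2F1, were used.

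A mouse oocyte grows inside a follicle, surrounded by granulosa cells that feed it through gap junctions. During growth it secretes growth factors and the glycoproteins of the zona pellucida, the egg coat, and it stores messenger RNAs, ribosomes and maternal proteins that the embryo uses before its own genome is active. Its DNA is newly methylated in the same period. In reconstituted ovaries these steps take place outside the body, with embryonic somatic cells standing in for the follicle.

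The D20 libraries held 14.7, 18.4 and 17.1 M reads (M, 1000000) for replicates 1, 2 and 3, and the D17 libraries 19.4, 18.2 and 16.6 M reads; 3 reads in a library corresponded to 0.155 to 0.204 RPM. D20 replicate 2 stood apart from the other D20 libraries. Its correlation with them across genes (Pearson's r of log2 values) was 0.985 and 0.988, against 0.996 between D20 replicates 1 and 3, and it was 0.990 with D17 replicate 1. Among the 4543 genes called without it, it lay on the same side of the D17 mean as the other D20 libraries for 3974 (87.5%), and it reached a median of 37.7% of their change. Whether these oocytes were at an earlier stage or differed in another way was not tested. The main counts of genes are therefore also given without it. All 8 listed oocyte markers were present in every library of both groups, and the top gene in all 6 was Ccdc82, with 5.36%, 3.29% and 5.33% of reads at D20 and 3.96%, 4.36% and 4.73% at D17.

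Between D17 and D20 the message for ribosomal proteins and respiratory chain subunits fell, as did Figla, while Bmp15, Dnmt3l, Spry4 and Slc7a11 rose. Genes of the other lists were called in smaller numbers, and most of those counts were lower when D20 replicate 1 or 3 was left out and higher without D20 replicate 2. By limma on log2(RPM + 1), with Benjamini-Hochberg adjusted p under 0.05, 3168 genes were called (25.2% of those tested), 2121 higher in D20 (16.9%) and 1047 lower (8.32%). The changes were small: the median absolute log2 change of called genes was 0.53, and 195 genes (1.55%) passed both the test and a log2 change of 1, 179 of them higher (1.42%) and 16 lower (0.127%). All 3 D20 libraries lay above all 3 D17 libraries for 3461 tested genes (27.5%) and below them for 1771 (14.1%).

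The balance of higher and lower calls depended on the scaling. With library size factors in place of RPM it was 1409 higher against 1726 lower, with edgeR on the recovered reads 1297 against 1680, and with DESeq2 1504 against 1865; the median log2 change over all tested genes was 0.09 in RPM and 0.0040 by edgeR. Without D20 replicate 2, 2854 genes were higher (22.7%) and 1689 lower (13.4%), and 2005 of the 2121 higher calls and 1022 of the 1047 lower calls were among them. Leaving out D20 replicate 1 gave 1315 calls, D20 replicate 3 gave 1116 and D17 replicate 2 gave 1467. No called gene turned its direction in any of these fits. Of the 132 named genes that were called, 60 lost the call without D20 replicate 1, 63 without D20 replicate 3, 52 without D17 replicate 2, 36 without D17 replicate 3, 34 without D17 replicate 1 and 0 without D20 replicate 2. In bulk RNA from isolated oocytes, a change in RNA per cell and a change in the mix of oocyte stages cannot be told apart.

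The 12 largest rises among abundant genes were led by Chd5 (chromosome 4, 152338651 to 152390194, plus strand, GRCm38), a chromatin remodeller of the CHD family. Chd5 had 29.7, 24.6 and 27.5 RPM in the D20 libraries, against 10.9, 7.42 and 5.41 RPM in the D17 libraries. The log2 change was 1.71 ± 0.25 (standard error, limma adjusted p = 0.000701). Spry4, an inhibitor of receptor tyrosine kinase signalling to ERK, had 36.6, 26.2 and 40.7 RPM at D20 and 12.6, 9.34 and 8.66 RPM at D17, a log2 change of 1.66 ± 0.22 (adjusted p = 0.000346). Slc30a2, a zinc transporter, was nearly equal in the 3 D20 libraries at 33.4, 32.9 and 33.5 RPM, against 13.3, 9.72 and 8.24 RPM at D17. These 12 genes were chosen among those whose D20 and D17 libraries did not overlap, so that gap is no further evidence of change.

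Among the same 12 genes D20 replicate 2 held a lower level than its partners for some and a higher one for others. Zfp568, a KRAB zinc finger gene, had 35.6, 12.45 and 36.9 RPM at D20 against 7.31, 8.57 and 9.50 RPM at D17 (log2 change 1.49 ± 0.31, and 1.98 without D20 replicate 2). Atxn1l, a relative of ataxin 1, had 82.8, 31.8 and 69.7 RPM at D20 against 19.7, 24.2 and 23.4 RPM at D17. In both, D20 replicate 2 was the lowest D20 library. Ifitm6 and Mpped1, in contrast, were highest in D20 replicate 2, at 42.1 and 26.9 RPM. The other 5 were Prr18, the calcium pump gene Atp2b4, the ETS factor gene Ehf, the kinase gene Mast4 and the connexin trafficking gene Cnst, with log2 changes between 1.33 and 1.68. All 12 kept their calls whichever of the 6 libraries was left out. Ifitm6 belongs to a family of close copies, so its counts are uncertain.

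The 12 largest falls, chosen by the same rule of libraries that did not overlap, were smaller in size. Maged1, which encodes an adaptor of the MAGE family and lies on the X chromosome (94535474 to 94542143, minus strand), fell to 149, 217 and 153 RPM at D20, against 319, 398 and 426 RPM at D17, a log2 change of -1.14 ± 0.13 (adjusted p = 0.00023). Myot, the gene of the muscle Z-disc protein myotilin, had 52.2, 73.1 and 46.2 RPM at D20 and 96.5, 147 and 144 RPM at D17 (log2 change -1.16 ± 0.16). Gabarap, of the ATG8 family that builds autophagosomes, had 18.54, 24.1 and 20.9 RPM at D20 and 38.6, 48.0 and 46.6 RPM at D17 (log2 change -1.03 ± 0.13). In each, D20 replicate 2 was the D20 library nearest to D17.

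Some of the falls were in abundant messages. Aplf, a DNA end-joining factor, had 525, 627 and 526 RPM at D20 and 1044, 990 and 1171 RPM at D17 (log2 change -0.93 ± 0.10). Gimap1, a GTPase gene known from lymphocytes, had 253, 274 and 249 RPM at D20 and 487, 473 and 568 RPM at D17 (log2 change -0.97 ± 0.09). Both groups were tight. The remaining falls were Cox4i2, an alternative cytochrome c oxidase subunit (-1.04), the myosin light chain gene Myl12b (-0.97), the dynein assembly gene Lrrc6 (-0.95), the adhesion gene Nfasc (-0.90), Rpl37a (-0.88), the synaptic scaffold gene Dlgap1 (-0.88) and the calcium channel gene Ryr3 (-0.87). All 12 falls were called whichever of the 6 libraries was left out.

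**Figure D1:**
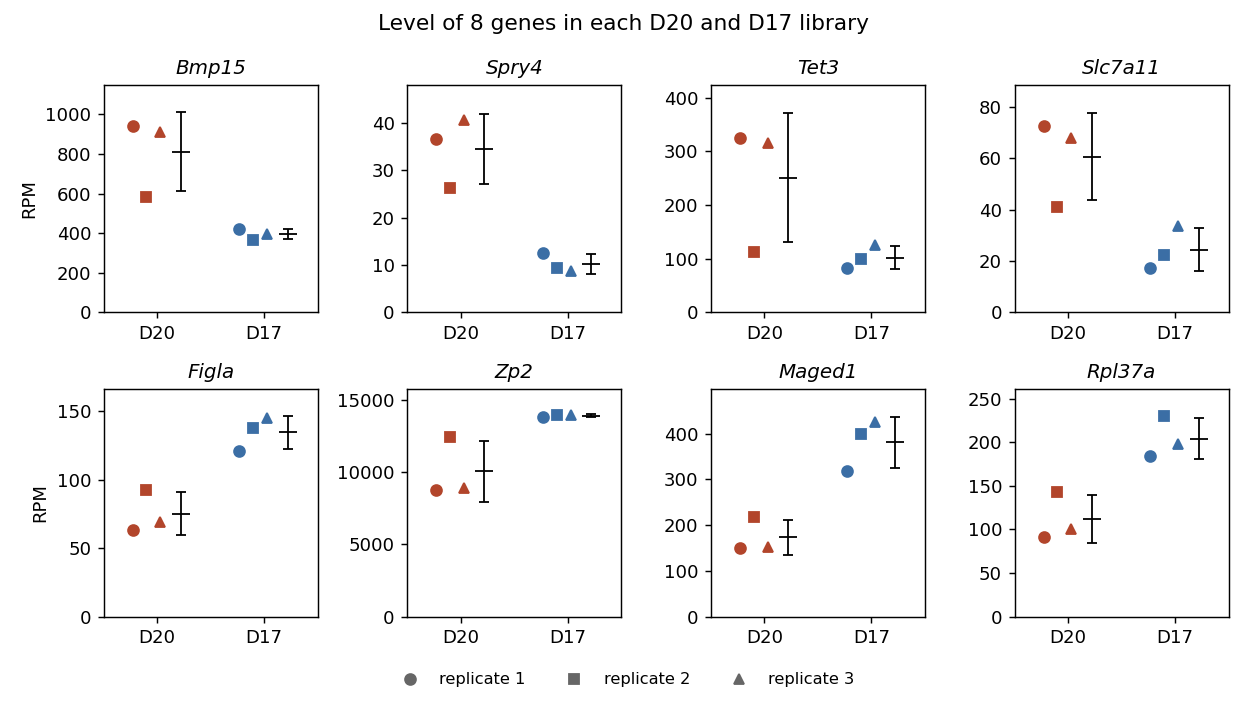
Level in RPM (vertical axes, from 0) of 8 genes in the D20 libraries (left, red) and the D17 libraries (right, blue), with 1 symbol per replicate and the mean ± SD of the 3 libraries in black. Bmp15, Spry4, Tet3 and Slc7a11 were higher at D20 and Figla, Zp2, Maged1 and Rpl37a lower; D20 replicate 2 (square) was the D20 library nearest to the D17 values in all 8, with 113 RPM of Tet3 beside 324 and 316 RPM in its partners.

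Genes of the cytosolic ribosome, which makes protein in every cell, fell together. Of 81 tested members 75 fell and none rose, with a median log2 change of -0.56 beside 0.09 for all tested genes, and 80 fell without D20 replicate 2. Rpl37a, a protein of the large subunit, had 91.7, 143 and 101 RPM in the D20 libraries, against 184, 230 and 198 RPM in the D17 libraries. Rps20, a protein of the small subunit, had 155, 220 and 161 RPM at D20 and 269, 386 and 308 RPM at D17, a log2 change of -0.84 ± 0.14. In both the groups did not overlap. Rps28 (-0.85) and Rps23 (-0.78) were among the 4 largest falls, and the member that moved least was Rps15a at -0.11. The count of falls stayed between 60 and 80 when each library was left out, and was 79 by edgeR. With all 27 libraries of the course in the fit, which called 650 genes in all, only 9 of the 81 were called. Ribosomal protein genes have many processed copies in the genome that can share reads, so the value of a single gene is less certain than the direction of the list.

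The nuclear-encoded respiratory chain, which makes ATP in mitochondria, moved the same way. Of 76 tested genes, complex subunits and the electron carrier Cycs, 55 fell and none rose (median log2 change -0.42; 70 fell without D20 replicate 2). Ndufa7 of complex I had 39.1, 65.6 and 43.5 RPM at D20, against 73.1, 87.1 and 82.2 RPM at D17, and Cox6a1 of complex IV had 101, 158 and 113 RPM at D20, against 195, 203 and 200 RPM at D17. Both changed by about the same amount, -0.73 ± 0.14 for Ndufa7 and -0.70 ± 0.12 for Cox6a1. The count of falls was 26 without D20 replicate 1, 27 without D20 replicate 3 and 35 without D17 replicate 2, and 2 with all 27 libraries of the course in the fit. Cycs, cytochrome c, stood at 0.05 and was not called. Of the 31 proteasome subunits 6 fell (19.4%, beside 8.32% over all tested genes) and none rose, with a median of -0.18. Without D20 replicate 2, 19 fell, and none was called without D20 replicate 1 or without D20 replicate 3. With library size factors 17 fell, with edgeR 16 and with DESeq2 18.

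**Figure D2:**
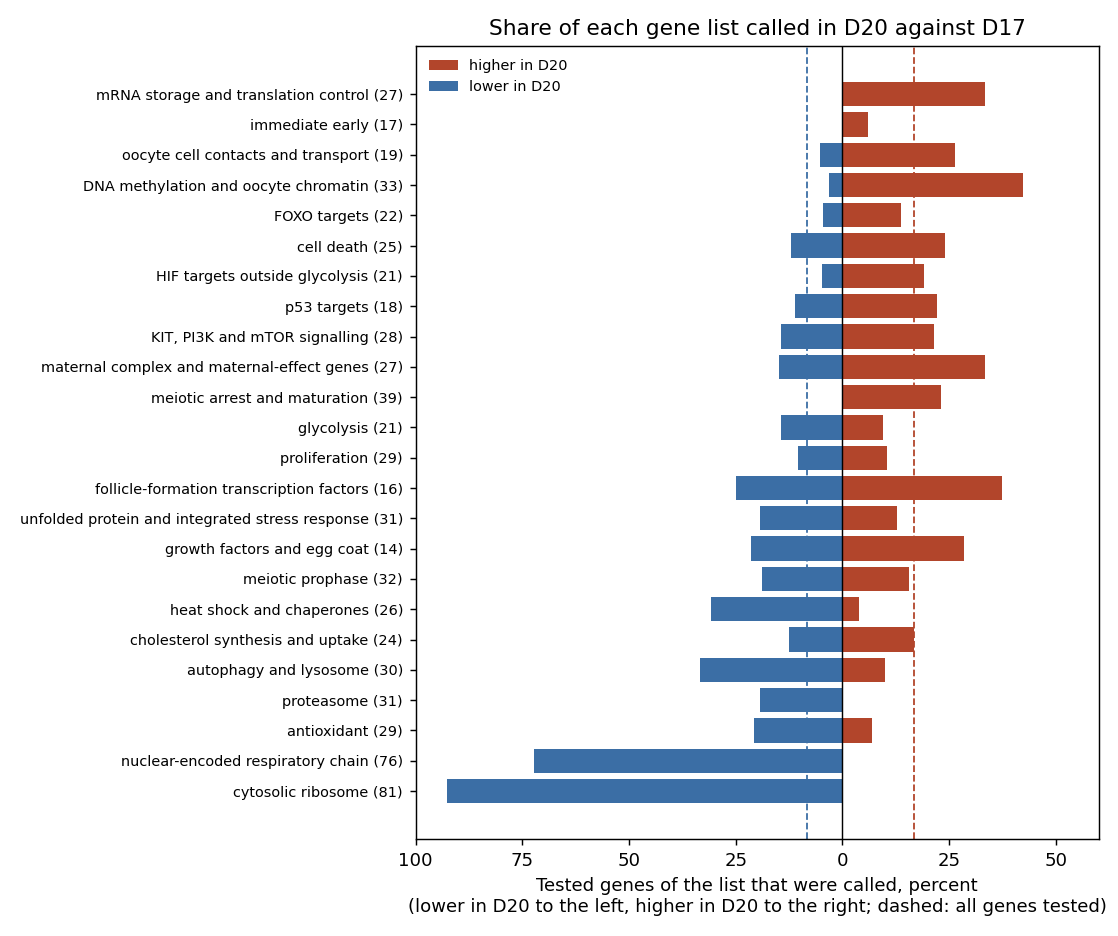
Share of the tested genes of each list that were called lower in D20 (blue, to the left) or higher in D20 (red, to the right), ordered by the list's median log2 change; the number in brackets is the number of tested genes. The dashed lines mark the shares over all tested genes, 8.32% lower and 16.9% higher; the ribosome and the respiratory chain reach 92.6% and 72.4% lower.

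Genes of the egg coat and of the growth factors that the oocyte secretes split. Bmp15, a factor of the TGF-beta family that acts on granulosa cells, rose to 942, 581 and 913 RPM in the D20 libraries, against 421, 368 and 398 RPM in the D17 libraries. All D20 libraries were above D17, and the log2 change was 1.005 ± 0.15 (adjusted p = 0.000877). Gdf9, its close relative and partner, had 5244, 5547 and 5314 RPM at D20 and 5524, 5600 and 5307 RPM at D17. Its groups overlapped and its log2 change of -0.03 ± 0.12 was not called (adjusted p = 0.88). Oosp3 and Oosp1, genes of oocyte-secreted proteins, rose by log2 0.69 and 0.28. Oosp3 kept its call whichever library was left out. The call of Oosp1 held only in the fit without D20 replicate 2 among those that left out a library.

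The zona pellucida genes were near the top of the transcriptome in both groups. Zp2, whose protein sperm bind, had 8793, 12478 and 8922 RPM at D20, against 13823, 13994 and 13992 RPM at D17. Zp3 had 6240, 9342 and 6535 RPM at D20 and 9791, 10194 and 9802 RPM at D17, and Zp1, which crosslinks the zona filaments, had 3363, 4705 and 3420 RPM at D20 and 4755, 4720 and 4869 RPM at D17. In all 3 genes D20 replicates 1 and 3 were well below D17 while D20 replicate 2 was closer to, and still under, the D17 range. The falls were called (log2 -0.49, -0.45 and -0.34 for Zp2, Zp3 and Zp1, adjusted p = 0.0203, 0.0247 and 0.0499), and these calls were lost in 5 of the 6 fits that left out a library, all but the one without D20 replicate 2.

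Figla, the basic helix-loop-helix factor that binds E-boxes in the zona gene promoters, had a larger fall than the zona genes. It had 63.5, 92.8 and 69.4 RPM at D20 and 121, 138 and 145 RPM at D17 (log2 change -0.84 ± 0.12, adjusted p = 0.000622), with no overlap. The starts of Figla, Zp3 and Bmp15 are shown because the first 2 fell and the third rose. They are RefSeq windows on GRCm38.p6, 250 bases before to 50 after the annotated start and written along the gene's strand: chr6:86016941-86017240 (plus) for Figla, chr5:135979855-135980154 (plus) for Zp3 and chrX:6320675-6320974 (minus) for Bmp15. In the GENCODE annotation Figla spans 86016171 to 86020996, so by that annotation the Figla window lies inside the gene. Its E-boxes therefore depend on the RefSeq start. Capitals mark each E-box, CANNTG, which reads the same on both strands.
Figla: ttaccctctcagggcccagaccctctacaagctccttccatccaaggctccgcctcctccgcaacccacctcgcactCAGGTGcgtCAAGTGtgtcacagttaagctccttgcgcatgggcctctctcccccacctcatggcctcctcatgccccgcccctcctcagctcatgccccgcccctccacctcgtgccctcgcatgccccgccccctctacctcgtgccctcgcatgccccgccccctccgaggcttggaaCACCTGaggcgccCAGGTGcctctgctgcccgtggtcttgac
Zp3: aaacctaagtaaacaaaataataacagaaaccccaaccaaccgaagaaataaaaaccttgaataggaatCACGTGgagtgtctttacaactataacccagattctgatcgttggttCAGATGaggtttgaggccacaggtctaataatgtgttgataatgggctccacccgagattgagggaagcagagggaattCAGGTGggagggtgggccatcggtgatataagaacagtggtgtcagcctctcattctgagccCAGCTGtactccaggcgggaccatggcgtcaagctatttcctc
Bmp15: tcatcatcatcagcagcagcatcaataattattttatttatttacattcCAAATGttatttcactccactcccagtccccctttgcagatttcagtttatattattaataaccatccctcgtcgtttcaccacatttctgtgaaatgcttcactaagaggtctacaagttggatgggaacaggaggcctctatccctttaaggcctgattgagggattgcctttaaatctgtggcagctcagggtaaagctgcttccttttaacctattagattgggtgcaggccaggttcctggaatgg
The Figla and Zp3 windows held 4 matches each and the Bmp15 window 1. A match to these letters is common: 72.3% of the 32851 windows in the table held at least 1. Among the tested genes with a window the share was 62.1% for those called higher, 64.9% for those called lower and 63.6% for all 9490. The 6-letter homeobox motif TAATTG, searched on both strands, was in none of the 3 windows and in 2628 of all windows. A match is a description of the letters and not a binding site.

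Of 16 tested transcription factors of follicle formation 6 rose (37.5%) and 4 fell (25%), beside 16.9% and 8.32% over all tested genes. With library size factors 2 rose and 5 fell, and without D20 replicate 2, 7 and 5. It was 1 rise and 2 falls without D20 replicate 1 or 3, and 2 and 2 without D17 replicate 2 or 3. Sohlh1, a germ cell factor of early follicles, had 36.1, 78.2 and 42.1 RPM at D20 and 58.4, 98.1 and 75.4 RPM at D17. Its groups overlapped and the fall of log2 0.61 was called at an adjusted p of 0.0459, a call that was lost without D20 replicate 1 or 3 and without D17 replicate 2 or 3. Sohlh2 and Stat3 fell by 0.35 and 0.56 on the log2 scale. Foxo1, a forkhead factor, had 214, 97.4 and 204 RPM at D20 against 71.7, 95.8 and 91.1 RPM at D17. D20 replicate 2 was barely above the D17 range, and the log2 change was 0.91 ± 0.23, or 1.28 without it; the call was lost without D20 replicate 1 and without D20 replicate 3.

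Foxo3, the forkhead factor that holds oocytes dormant and the gene named in the series title, had 90.0, 68.7 and 84.5 RPM at D20 and 60.5, 64.1 and 66.6 RPM at D17. The groups did not overlap, the log2 change was 0.33 ± 0.11 (limma adjusted p = 0.0329), and edgeR gave an adjusted p of 0.101. The call held only in the fit without D20 replicate 2 among the 6 that left out a library. Of 22 tested FOXO targets 3 rose (13.6%) and 1 fell (4.55%), beside 16.9% and 8.32% over all tested genes. The counts were 2 and 5 with library size factors, 6 and 4 without D20 replicate 2, and 1 and 1 without D20 replicate 1 or 3. Txnip, which restrains thioredoxin and glucose uptake, had 604, 420 and 586 RPM at D20 against 299, 327 and 302 RPM at D17 (log2 change 0.78 ± 0.13). Cat, catalase, fell to 2.04, 3.75 and 3.69 RPM, against 6.90, 6.98 and 6.62 RPM at D17. Nobox, a homeobox factor of oocyte growth, had a log2 change of -0.21 and was not called by limma (adjusted p = 0.0579), while edgeR gave 0.0163.

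Maternal-effect genes also moved in both directions: 9 of 27 tested rose (33.3%) and 4 fell (14.8%), beside 16.9% and 8.32% over all tested genes. With library size factors 5 rose and 7 fell, and without D20 replicate 2, 10 and 9. The counts were 4 and 1 without D20 replicate 1 or D17 replicate 2, 2 and 1 without D20 replicate 3, and 5 and 1 without D17 replicate 3. The falls were Padi6, Dppa3, Khdc3 and Nlrp5. Padi6, needed for the cytoplasmic lattices of the oocyte, had 14139, 20054 and 14188 RPM at D20 against 21406, 23265 and 23897 RPM at D17, with no overlap. Nlrp5, a core protein of the subcortical maternal complex, had 5422, 6818 and 5183 RPM at D20 and 6971, 7535 and 7419 RPM at D17. The call of Padi6 was lost without D20 replicate 1 or 3 and without D17 replicate 2 or 3, and that of Nlrp5 in all fits that left out a library but the one without D20 replicate 2. Of the 9 rises, 6 were in less abundant members of the Nlrp4 and Nlrp9 groups. Nlrp9c had 160, 164 and 178 RPM at D20 against 108, 71.1 and 79.0 RPM at D17, a log2 change of 0.97 ± 0.14, and Nlrp9a changed by 0.53 ± 0.09. D20 replicate 2 was level with its partners in both. Oog3 and Oog4, of the oogenesin group, rose by log2 0.96 and 1.03. The Nlrp9, Obox and oogenesin genes have near-identical copies, so their separate values are uncertain.

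Of 33 tested genes of DNA methylation and oocyte chromatin 14 rose (42.4%) and 1 fell (3.03%), with a median log2 change of 0.21. Over all tested genes the shares were 16.9% and 8.32%. With library size factors 9 rose and 2 fell, and without D20 replicate 2, 15 and 2. The rises were 5 without D20 replicate 1, 3 without D20 replicate 3 and 8 without D17 replicate 2 or 3. Tet3, the dioxygenase that acts on paternal methylcytosine in the zygote, had 324, 113 and 316 RPM at D20 against 81.7, 99.0 and 126 RPM at D17. Here D20 replicate 2 lay inside the D17 range, and the log2 change of 1.16 ± 0.30 was 1.66 without it; the call was lost without D20 replicate 1 and without D20 replicate 3. Dnmt3l, the cofactor of methylation in growing oocytes, behaved differently, with 67.6, 64.4 and 61.8 RPM in the 3 D20 libraries against 46.5, 34.2 and 36.2 RPM at D17 (log2 change 0.73 ± 0.15). It kept its call whichever library was left out. Suz12, a Polycomb subunit, and Tet1 rose by 0.77 and 0.86; Tet1 was low, at 4.41, 6.31 and 5.92 RPM at D20 and 3.81, 2.03 and 2.17 RPM at D17. Without D20 replicate 3 neither was called. Suz12 also lost its call without D20 replicate 1 and without D17 replicate 1 or 2. Tet1 also lost its call without D17 replicate 2 or 3. Dnmt1, the maintenance methyltransferase, was at 5586, 4794 and 4836 RPM at D20 and 4745, 4563 and 4981 RPM at D17, which was not called.

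Among 27 tested genes of mRNA storage and translation control 9 rose (33.3%, beside 16.9% over all tested genes) and none fell. The median log2 change was 0.29. Without D20 replicate 2 the count was 14 rises and 1 fall, and it was 0 without D20 replicate 1 or without D20 replicate 3, so the list rested on those libraries. Ddx6, a helicase of stored messenger particles, had 349, 108 and 265 RPM at D20 against 86.5, 105 and 167 RPM at D17. The groups overlapped through D20 replicate 2. Cnot6l, a deadenylase subunit, and Btg4, its adaptor in maternal mRNA decay, rose by 0.61 and 0.50. Of 39 tested genes of meiotic arrest and maturation 9 rose (23.1%, beside 16.9% over all tested genes) and none fell. With library size factors 7 rose and 2 fell, and without D20 replicate 2, 13 and 3. Without D20 replicate 1 or 3 the rises were 2, and without D17 replicate 2 or 3 they were 4. Bub1b, of the spindle checkpoint, had 371, 283 and 370 RPM at D20 against 255, 211 and 198 RPM at D17, and Gpr3, the receptor that keeps oocyte cAMP high, had 29.5, 20.7 and 32.0 RPM at D20 against 19.9, 18.0 and 16.0 RPM at D17. Both sets of libraries were apart. Bub1b kept its call whichever library was left out. Gpr3 lost it without D20 replicate 1 or 3 and without D17 replicate 2 or 3. Mos, Wee2 and Cdk1, of the maturation kinases, had log2 changes of 0.09, 0.07 and -0.18 and were not called.

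Genes of meiotic prophase gave 6 falls (18.75%) and 5 rises (15.6%) of 32 tested, beside 8.32% and 16.9% over all tested genes. Without D20 replicate 2 there were 7 falls and 4 rises. There were 2 falls and 0 rises without D20 replicate 1, 2 and 1 without D20 replicate 3, and 2 and 2 without D17 replicate 2. The falls included structural genes of the chromosome axis. Smc1b, the meiotic cohesin subunit, had 107, 107 and 95.4 RPM at D20 against 139, 181 and 191 RPM at D17 (log2 change -0.71 ± 0.11). Syce1, of the synaptonemal complex, had 3.87, 5.82 and 3.69 RPM at D20 and 7.98, 10.3 and 9.92 RPM at D17. Sycp3 fell by 0.58. In all 3 the D20 libraries were below D17. The rises, among them Rad21l and Msh4 (0.64 and 0.55), numbered 1 when the trend with transcript length was removed. Of 29 proliferation genes 3 rose and 3 fell (10.3% each way). The rises were Ccne2, Top2a and Mcm4, and 5 fell with library size factors.

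Stress and clearance genes leaned down. Of 26 tested heat shock genes and chaperones 8 fell and 1 rose (10 and 2 without D20 replicate 2). Hspa8, the constitutive HSP70, had 2596, 3038 and 2553 RPM at D20 against 4044, 3654 and 3908 RPM at D17, and Hsp90ab1 had 1449, 1730 and 1415 RPM at D20 against 2099, 2118 and 2316 RPM at D17. Both fell by 0.51 on the log2 scale with tight groups. Of 30 autophagy and lysosome genes 10 fell and 3 rose (11 and 3 without D20 replicate 2); the falls included the lysosomal enzymes Hexa, Ctsd and Ctsl and the ATG8 genes Gabarap, Gabarapl2 and Map1lc3a. Of 29 antioxidant genes 6 fell and 2 rose (13 and 3 without D20 replicate 2), the falls being Cat, Gsto1, Txnrd2, Gpx1, Gpx4 and Sod1. These shares, 30.8%, 33.3% and 20.7% lower, stand beside 8.32% over all tested genes. Without D20 replicate 1 the falls were 4, 5 and 4 for the chaperone, autophagy and antioxidant lists, and without D20 replicate 3 they were 4, 4 and 3. With library size factors they were 11, 13 and 11.

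The list of the unfolded protein and integrated stress response was called in both directions. Of 31 tested genes 6 fell (19.4%) and 4 rose (12.9%), beside 8.32% and 16.9% over all tested genes. The counts were 7 and 5 without D20 replicate 2, and 3 and 2 without D20 replicate 1 or 3. Hspa5, the main chaperone of the endoplasmic reticulum, had 431, 532 and 427 RPM at D20 against 715, 698 and 761 RPM at D17 (log2 change -0.65 ± 0.13), and Hsp90b1 and Pdia4 fell by 0.58 and 0.51. Slc7a11, the cystine transporter that supplies glutathione synthesis, rose to 72.3, 41.1 and 67.9 RPM, against 17.4, 22.2 and 33.7 RPM at D17 (log2 change 1.28 ± 0.22). Its D20 libraries were all above D17. Atf4, Ddit3 and Asns had log2 changes of 0.02, 0.35 and -0.16 and were not called.

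Counts for glycolysis and oxygen genes depended on the scaling. Of 21 glycolysis genes 3 fell (14.3%) and 2 rose (9.52%), beside 8.32% and 16.9% over all tested genes. Without D20 replicate 2 it was 6 and 4. With library size factors 6 fell and 1 rose, with edgeR 7 and 1 and with DESeq2 8 and 1. Aldoa had 199, 255 and 209 RPM at D20 against 304, 317 and 311 RPM at D17, and Pgk1 fell by the same 0.50 on the log2 scale, while Pfkp, a phosphofructokinase, had 17.7, 15.5 and 16.3 RPM at D20 against 11.3, 6.43 and 7.46 RPM at D17. Of 21 targets of hypoxia-inducible factor outside glycolysis 4 rose (19%) and 1 fell (4.76%), or 6 and 2 without D20 replicate 2. With library size factors it was 2 and 2, and with edgeR 1 and 2. Without D20 replicate 1, D20 replicate 3 or D17 replicate 2 only 1 rose. Egln1, an oxygen sensor, had 148, 136 and 159 RPM at D20 against 111, 117 and 107 RPM at D17, a log2 change of 0.40 ± 0.09. Its groups did not overlap, and it was the target called in every fit that left out a library.

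Over all tested genes 16.9% rose and 8.32% fell, and the shares of the next lists stand beside these. In the KIT, PI3K and mTOR list 6 of 28 rose (21.4%) and 4 fell (14.3%), or 12 and 4 without D20 replicate 2. The rises were 1 without D20 replicate 1, 2 without D20 replicate 3 or D17 replicate 2, and 3 without D17 replicate 1. The ligand Kitl, made in the ovary mainly by granulosa cells, was at 4.35, 2.94 and 3.75 RPM at D20 against 1.18, 1.04 and 0.842 RPM at D17, and the receptor Kit at 522, 437 and 488 RPM against 473, 495 and 559 RPM. Kitl was apart between the groups at a low level, and Kit overlapped and was not called. Of 18 p53 targets 4 rose (22.2%) and 2 fell (11.1%). None rose without D20 replicate 1, D20 replicate 3 or D17 replicate 1. Of 25 cell death genes 6 rose (24%) and 3 fell (12%). The counts were 4 and 4 with library size factors and 3 and 4 with edgeR. The rises in the death list were the apoptosome gene Apaf1 and the survival genes Bcl2, Bcl2l2, Mcl1, Birc3 and Bcl2l10, and the falls were the pro-apoptotic genes Bax, Bad and Bid. Without D20 replicate 2 that list had 11 rises and 4 falls, without D20 replicate 1 it had 1 and 1, and without D20 replicate 3 it had 0 calls. Of 24 cholesterol genes 4 rose and 3 fell, but 2 rose and 7 fell with library size factors or edgeR, and 1 and 2 without D20 replicate 1. Of 17 immediate early genes 1 rose (5.88%), and none without D20 replicate 1 or 3. Of 19 genes of cell contacts and transport 5 rose (26.3%) and 1 fell (5.26%). Only 1 rose without D20 replicate 1, D20 replicate 3 or D17 replicate 2. Cdh1 had 92.9, 79.9 and 100 RPM in D20 libraries against 65.9, 63.9 and 63.2 RPM in D17 libraries.

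Markers of the somatic cells around the oocyte were mostly at or near zero. Of the 24 granulosa markers 14 stayed below 1 RPM in all 6 libraries, as did 13 of 17 stroma and theca markers, 5 of 10 endothelium markers and 10 of 12 blood markers. Amh, Amhr2 and Foxl2, which define granulosa cells, reached at most 0.527, 0.136 and 0.567 RPM, and Cdh5 of endothelium and Cyp17a1 of theca had no reads. Nevertheless 5 of the 9 granulosa markers that could be tested rose: Kitl, Gata4, Cyp19a1, Esr2 and Nr5a2. The count was 3 without D20 replicate 1 or 3 and without D17 replicate 2 or 3, with Gata4 and Esr2 losing their calls each time. The share of 55.6% higher stands beside 16.9% over all tested genes. In P6 large over P4 large 5 of these 9 markers were called higher, where 9.23% of all tested genes were. The median log2 change of the 9 was 0.63 in culture and 0.525 in the ovary. Gata4 had 46.6, 42.1 and 48.2 RPM at D20 against 30.1, 22.3 and 22.4 RPM at D17, and Nr5a2 had 68.8, 76.0 and 72.3 RPM against 51.0, 51.3 and 48.9 RPM. The summed level of the granulosa list was 184, 183 and 198 RPM at D20 and 140, 109 and 113 RPM at D17. Nr5a2, Gata4 and Esr2 made most of this sum in every library. Esr2 had 38.2, 31.2 and 44.1 RPM at D20 against 29.3, 18.2 and 22.1 RPM at D17. The stroma and theca list summed to 25.9, 16.4 and 20.4 RPM at D20 and 12.9, 14.8 and 16.1 RPM at D17. The endothelium list summed to 53.1, 51.6 and 54.0 RPM at D20 and 39.1, 36.5 and 36.3 RPM at D17, of which Pecam1 made the most, and the blood list to 17.9, 23.1 and 23.2 RPM at D20 and 34.2, 22.3 and 25.9 RPM at D17.

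The named genes were followed back to day 13, where the D17 values are shared between the intervals, so the values are set side by side only. Bmp15 averaged 81.7, 242, 396 and 812 RPM on days 13, 15, 17 and 20, and Dnmt3l 3.71, 19.5, 38.98 and 64.6 RPM. Nlrp9c averaged 6.14, 38.5, 86.2 and 167 RPM on the same days. These 3 genes were higher on each later day. Gdf9 averaged 2288, 4427, 5477 and 5368 RPM and Zp2 averaged 13972, 15370, 13936 and 10064 RPM, and only the second was called for the last interval. Figla averaged 335, 211, 134 and 75.2 RPM and Maged1 1069, 615, 381 and 173 RPM, lower on each later day.

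**Figure D3:**
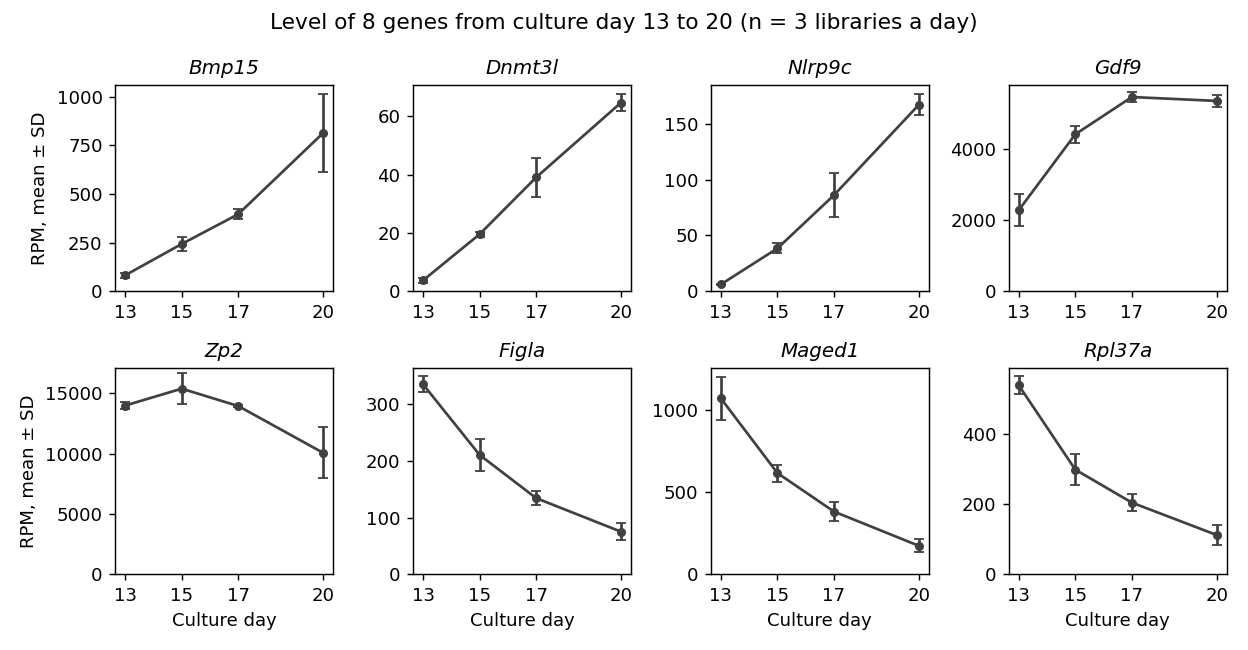
Mean level in RPM (vertical axes, from 0) of 8 genes on culture days 13, 15, 17 and 20, with the SD of 3 libraries a day as bars. Bmp15, Dnmt3l and Nlrp9c were higher on each later day, Gdf9 differed little between days 17 and 20 (5477 and 5368 RPM), Zp2 was lowest on day 20, and Figla, Maged1 and Rpl37a were lower on each later day.

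Change between the groups went with transcript length. Tested genes were divided into 5 bins of equal size by length. In the shortest bin (median length 765 nucleotides) the median log2 change was -0.07, with 8.98% of genes called higher and 17.8% lower; in the longest bin (median 4919) it was 0.26, with 28.7% higher and 3.60% lower. Spearman's rho of length and change was 0.32 across 12504 genes, which are not independent replicates. The trend was not shared equally by the D20 libraries. From the shortest to the longest bin, the median ran from -0.15 to 0.34 in D20 replicate 1, from -0.10 to 0.29 in D20 replicate 3 and from 0.02 to 0.11 in D20 replicate 2. Between P6 large and P4 large oocytes the medians were -0.15 for the shortest bin and -0.09 for the longest.

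With the length trend removed, an alternative chosen after seeing the data, 2788 genes were called, 1165 higher and 1623 lower. The ribosome list then had 75 falls and a median of -0.48, and the respiratory chain 55 falls and a median of -0.36. The chromatin list had 6 rises and 4 falls, the mRNA storage list 2 rises and 1 fall, and the contacts list 1 rise and 2 falls. RNA quality was not given for any library, and its part in the trend was not tested.

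**Figure D4:**
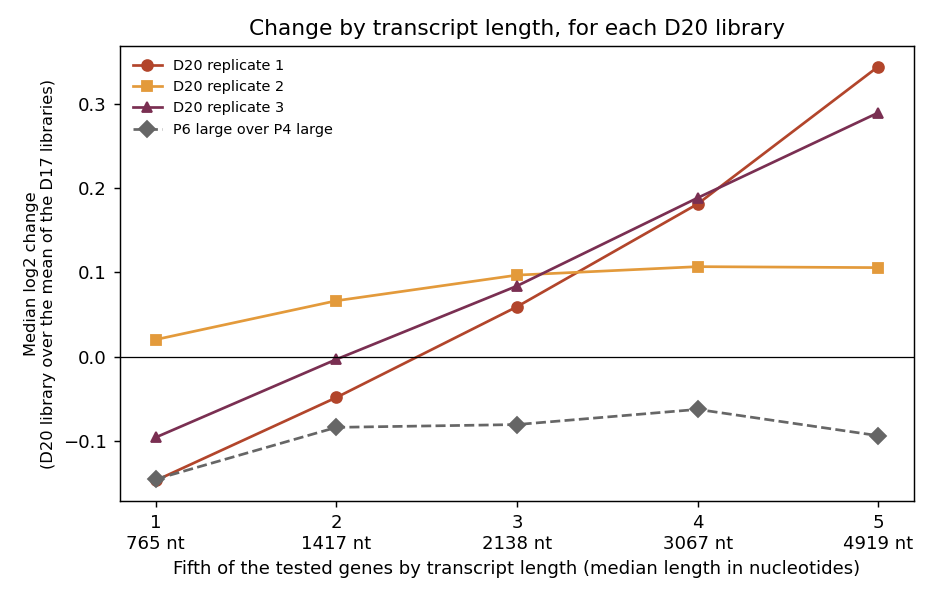
Median log2 change (vertical axis) of genes in 5 bins of transcript length, shortest to longest from left to right, for each D20 library over the mean of the D17 libraries (solid) and for P6 large over P4 large oocytes (dashed). D20 replicates 1 and 3 climb from -0.15 and -0.10 to 0.34 and 0.29, D20 replicate 2 from 0.02 to 0.11, and the ovarian change stays between -0.15 and -0.06.

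The culture interval was set beside growth of large oocytes in the ovary, P6 large against P4 large, which shares no library with it. In a fit of these 4 groups, 2848 genes were higher and 1255 lower in D20, and 1162 were higher (9.23%) and 2309 lower (18.3%) in P6 large; with library size factors the ovarian split was 1709 and 1481. The ovarian total of 3471 was 1778 without P4 large replicate 1 and 1893 without P4 large replicate 3. It was 4500 without D20 replicate 2, a culture library. Both changes came from the same fit and shared each gene's estimate of spread, so the calls that overlap are not independent. Of the genes lower in D20, 741 (59.0%) were also lower in P6 large, which is 32.1% of the genes lower in P6 large. Of the genes higher in D20, 682 (23.9%) were also higher in P6 large, which is 58.7% of the genes higher there. Opposite calls were 73 genes higher in D20 and lower in P6 large, and 1 the other way. Across 12587 genes the 2 log2 changes had a Pearson's r of 0.54.

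The ribosome list fell in both settings, with 75 of 81 members lower in D20 and 75 of 81 lower in P6 large, and medians of -0.56 and -0.50. The respiratory chain had 55 of 76 lower in D20 and 50 of 76 lower in P6 large. Bmp15 rose by 1.005 in culture and 1.15 in the ovary, Figla fell by 0.84 and 0.72, Spry4 rose by 1.66 and 1.45 and Maged1 fell by 1.14 and 0.77; for none of these 4 was the difference between settings called. The zona genes Zp2 and Zp3 changed by 0.07 and 0.05 in the ovary, and their difference from culture was not called either (adjusted p = 0.0613 and 0.0904).

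The difference between the culture and the ovarian change was tested directly, and 787 genes (6.25%) were called, 693 above zero (5.51%) and 94 below it (0.747%). This count was unstable. Leaving out a culture library gave 121, 2708 and 45 calls for D20 replicates 1, 2 and 3, and 168 and 169 for D17 replicates 1 and 2. Leaving out an ovarian library gave 453, 136 and 363 for P6 large replicates 1, 2 and 3, and 19 and 51 for P4 large replicates 1 and 3. The median difference over all genes was 0.16 in RPM and 0.013 with library size factors, and with those 335 genes were called, 131 above and 204 below zero. Among the named genes, Arid5b had log2 changes of 0.57 in culture and -1.16 in the ovary, and Map3k9, a kinase of the JNK pathway, 0.79 and -0.79. Slc7a11 rose by 1.28 in culture and changed by -0.07 in the ovary. Oog3, an uncertain copy family member, had 0.96 in culture and 3.67 in the ovary, Clec12a -0.16 and 1.06, and Dkk3 0.29 and 1.40.

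**Figure D5:**
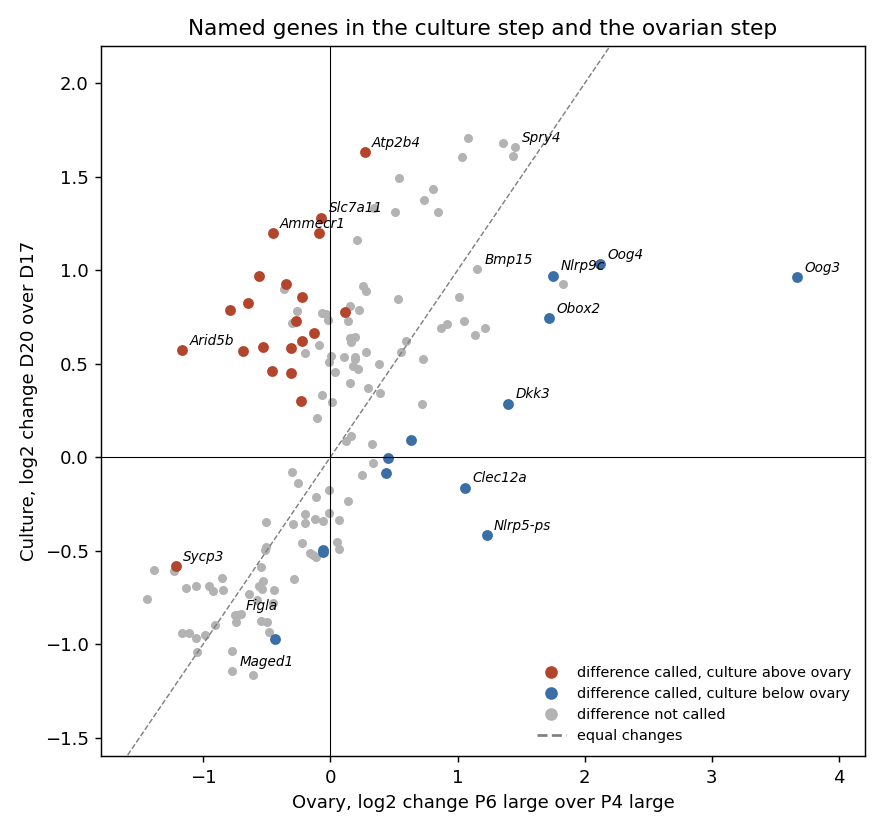
Log2 change of the 152 named genes in culture (D20 over D17, vertical axis) and in the ovary (P6 large over P4 large, horizontal axis); red and blue points are genes whose difference was called, above or below zero, grey points the others, and the dashed line marks equal changes. Figla and Maged1 lie low on both axes, Slc7a11 and Arid5b lie above the line, and Oog3 stands far to the right at 3.67.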

How the data were processed

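Poly(A) RNA of isolated oocytes was made into directional libraries with 12 cycles of PCR, per the labels' protocols. The deposited table gives RPM (reads per 1000000 reads in genes) for 24062 genes in 66 libraries; the submitters' processing notes name TopHat2, Bowtie2 2.0.13, featureCounts 1.5.1, R 3.4.4 and mm10, and the strand setting of the counting is not given in the sources used here. Every library had the same total, and 100% of entries were within 0.02 of a whole read once divided by the value of 1 read, so whole read counts were recovered from the deposited RPM.

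Genes with a mean of at least 1 RPM in D20 or D17 were tested on log2(RPM + 1) values in a trended limma fit (version 3.58.1, R 4.3.3). The fit held the 12 oocyte libraries of days 13 to 20 (8 residual degrees of freedom) and Benjamini-Hochberg adjustment over 12587 genes, at 0.05. A log2 change is on the log2(RPM + 1) scale and understates the change of low genes. The ovarian comparison and the difference used the 12 libraries of D20, D17, P6 large and P4 large. On the recovered reads, edgeR 4.0.16 called 2977 genes and DESeq2 1.42.0 called 3369. These were alternatives, as were other pseudocounts, filters, scalings, sample sets, a replicate block, leaving out each library, and removal of the trend with transcript length (GENCODE vM21). The procedure was tested on simulated data.

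Named genes were the 12 largest rises and falls among called genes with libraries that did not overlap and at least 20 RPM, up to 4 called members of each list (up to 2 where none was called), a panel of 30 genes, and the 5 largest called differences each way; other list members were named to complete a count and chosen after their values were seen. Predicted genes were passed over. Members and lists were chosen with earlier results of these data known. Promoter windows are from RefSeq, and 9490 of the tested genes had one. P-values measure the spread between these libraries, and intervals of reads cover counting error only.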

Additional observations from a re-analysis of the deposited data

Results flagged for a closer look

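The tested difference between the culture change (D20 over D17) and the ovarian change (P6 large over P4 large) drew attention to 787 genes. These were 6.25% of all tested genes, and 34 of the 152 named genes were among them. Some of the 34 were named because their called differences were the largest. Many others were named for their D20 over D17 change, which is a part of the difference. The count of 34 therefore follows in part from how genes were named and is no further evidence of a difference. The values are given here as differences of log2 changes, culture minus ovary, from the limma fit on log2(RPM + 1); with library size factors 131 were above and 204 below zero. The adjusted p of the 34 genes lay between 0.00729 and 0.0492. Culture and strain differ together between the settings and cannot be told apart.

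The largest positive differences were 1.73 for Arid5b, 1.65 for Ammecr1, 1.57 for Map3k9, 1.53 for Zbtb26 and 1.47 for Lgr4. All 5 had a negative log2 change in the ovary, from -0.45 for Ammecr1 to -1.16 for Arid5b. Membrane and transport genes followed, with 1.36 for Atp2b4, 1.35 for Slc7a11 and 1.27 for Vldlr. Kitl differed by 1.29, Ptch1 by 1.26, Bcl2 by 1.12, Tet1 by 1.08 and Trp53inp1 by 0.99996. Smaller positive differences were 0.92 for Ero1l, 0.89 for Irs2, 0.85 for Tjp1, 0.79 for Hsd17b7, 0.76 for Btg1, 0.66 for Txnip and 0.53 for Ddx4. Sycp3 differed by 0.63, with a log2 change of -0.58 in culture and -1.22 in the ovary.

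The negative differences were led by genes with near-identical copies, whose separate values are uncertain: -2.71 for Oog3, -1.65 for Nlrp5-ps, -1.09 for Oog4, -0.98 for Obox2 and -0.78 for Nlrp9c. Clec12a differed by -1.22 and Dkk3 by -1.11, with ovarian changes of 1.06 and 1.40. The oocyte genes Mos, H1foo and Gja4 differed by -0.54, -0.52 and -0.45, with ovarian changes of 0.64, 0.44 and 0.45. Gimap1, Hspa8 and Aldoa differed by -0.53, -0.45 and -0.44, and all 3 fell in culture.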

How the results depend on the processing

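No gene called in D20 against D17 was called in the opposite direction under any alternative. The total of 3168 calls was 650 when all 27 libraries of the culture course shared 1 estimate of the spread, and between 1116 (without D20 replicate 3) and 4543 (without D20 replicate 2) when a library was left out. The count past a log2 change of 1 was 353 with a pseudocount of 0.25 RPM, 42 with 4 RPM, 333 with edgeR and 336 with DESeq2, and 149 to 424 when a library was left out. When a library was left out, the ovarian count was 1778 (without P4 large replicate 1) to 4500 (without D20 replicate 2, a culture library). The count for the difference was then 19 to 2708. It was 130 with no filter on low genes, 335 with library size factors and 392 with edgeR. The cause of these shifts was not tested.

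The samples were not paired by the labels, and libraries with the same number did not all deviate together (correlations of -0.22, 0.12 and 0.14), nor did every D20 library correlate best with its own number. With the replicate number as a block the counts were 3296 for D20 against D17, 195 past a log2 change of 1, 3174 for the ovary and 629 for the difference, and 6 of the 132 called named genes lost the call.

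Small uncalled changes crossed zero. Dnmt1 was -0.00511 with size factors, -0.00335 with edgeR, -0.00323 with DESeq2 and -0.18 with the length trend removed. Mos was -0.00555 with edgeR and -0.00548 with DESeq2, and Wee2 -0.021 with size factors, -0.021 with edgeR and -0.020 with DESeq2. Gja4 ranged from -0.068 to 0.060 when a library was left out. A change of 2-fold was recovered in 97.0% and of 1.5-fold in 64.2% of genes simulated for D20 against D17, with 14 false calls. So some small changes could be missed. The changed genes had at least 5 RPM, and no simulated library was shifted as a whole like D20 replicate 2. These rates may therefore not hold for the real libraries, and the effect of depth was not tested.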

Other observations

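Genes grouped by the letters that open their symbol, with at least 20 tested genes a group, gave 53 families; they were looked at after the lists above, and their shares are descriptions with no test. RNA-binding motif genes (Rbm) had the highest share of rises, 14 of 35, with 0 falls. Fbxo genes followed with 10 rises and 1 fall of 27, and Cdc genes with 11 rises and 3 falls of 30. Kif genes had 10 rises and 1 fall of 31, and Arhgap genes 7 rises and 1 fall of 23. Trim genes, many of them ubiquitin ligases, had 15 rises and 1 fall of 42, Usp deubiquitinase genes 14 rises and 0 falls of 50, and Zbtb zinc finger genes 11 rises and 1 fall of 37. These families stand beside 16.9% higher over all tested genes and 8.32% lower. Whether transcript length has a part in these shares was not tested.

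Genes of the mitochondrial ribosome were called lower or not at all. Of 48 Mrpl genes 9 fell (18.75%) and 0 rose, with a median log2 change of -0.18. Of 29 Mrps genes 6 fell (20.7%) and 0 rose, with a median of -0.20. Over all tested genes 8.32% fell and 16.9% rose. The Rps and Rpl families, which overlap the ribosome list, had medians of -0.54 and -0.50. The 54 Eif genes of translation initiation had 4 rises (7.41%) and 8 falls (14.8%) and a median of -0.05. Whether the family counts hold when a library is left out was not tested.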
